A study of Caenorhabditis elegans with 357 samples.

Results

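The spermatogenesis genes spe-44, spe-4, spe-15, gsp-3, gsp-4, fer-1, spe-9, spe-38 and spe-41 of Caenorhabditis elegans were chosen by name from the spe, fer and gsp gene classes, and their expression was followed along the last larval stage, L4, in wild-type and serotonin-deficient animals. They are 9 of the 19397 genes listed in the deposited tables, and all 9 are listed for both strains. The study measured polyadenylated RNA from whole single animals whose age within L4 had been read from their behaviour. The wild-type group held animals of strain N2 (genotype WT) between 10.7 and 599.2 min in L4, and the mutant group held 164 animals of strain MT15434, tph-1(mg280) II, between 9.6 and 596 min. The N2 group numbered 49 animals under 200 min, 67 from 200 to under 400 min and 77 at 400 min or later. Animals of both strains were grown on NGM agar with OP50 bacteria and imaged one per arena on UV-killed OP50, with no other treatment named. Library titles divide the animals into numbered sets, 8 for N2 and 4 for tph-1. Each set holds 1 strain, so sets were taken as the units of the main comparisons of level between strains.

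In hermaphrodites of this species the germline makes sperm first, during L4, and then switches to oocytes. Transcription of sperm genes largely ends before the meiotic divisions, when the chromatin is compacted, and the budding spermatid later sheds its ribosomes. The gene products of this class therefore serve steps that come after their transcription: assembly of the fibrous body-membranous organelle complexes that carry the major sperm protein, budding of spermatids, activation into crawling spermatozoa, and fusion with the oocyte. tph-1 encodes tryptophan hydroxylase, the enzyme that makes serotonin precursor in neurons.

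The deposited values are reads scaled to the same total in every library (RPM), that total being the reads in listed genes. Reads per library ran from 587469 to 11544404 (median 2922062) in N2 and from 437993 to 5175666 (median 1764815) in tph-1, so 1 read was worth between 0.0866 and 2.28 RPM. A listed 0 allows up to 3 reads, equal to 0.26 to 5.11 RPM across N2 libraries and 0.58 to 6.85 RPM across the mutant ones, a limit that covers counting error alone. Reads of the mutated gene, tph-1, were present in all but 12 N2 animals (median 2.73 RPM, highest 26.9) and in all but 28 mutant animals (median 1.81 RPM, highest 19.3), so the strains overlapped and this transcript level did not check the labels. Whole animals were measured, so fewer sperm-forming cells and less RNA per cell cannot be told apart in any value below.

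These 3 spans are called the early, middle and late windows, and held 47, 70 and 47 tph-1 animals. Changes between windows are differences in log2(RPM + 1) within a strain, adjusted for set and tested with limma across 14293 genes. These fits took animals as units, so their SEs and p values do not measure how the changes differ between sets. For these changes a gene was called when its Benjamini-Hochberg adjusted p was under 0.05 and the change was at least 1; comparisons between strains needed the adjusted p alone. On this scale the change of low genes is understated. Of the 9 genes 8 passed the filter on low values (5 RPM in 10% of animals); spe-38 reached 5 RPM in 5.6% of animals and was not tested.

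Late against early, 7 of the 8 tested genes rose in N2 and 5 rose in tph-1, and 0 fell in either strain. N2 sets 1 to 5 held all early N2 animals and at most 2 late ones each. Sets 6 to 8 held 18, 8 and 45 late animals and no early one. Adjusted for set, the N2 change thus rests on few late animals and on links through the middle window. Each tph-1 set held animals of both windows, though set 2 held only 2 early ones and set 4 only 1 late one. Over all tested genes 11.4% rose and 8.19% fell in N2, while 10.1% rose and 23.6% fell in tph-1. The median change of the 8 genes was 1.72 in N2 and 1.36 in tph-1, beside medians of -0.36 and -0.68 over all tested genes. After rescaling by trimmed mean of M-values (TMM) factors the medians of all genes were -0.14 and -0.13. The share of called genes that rose then went from 58.1% to 72.8% in N2 and from 30.02% to 70.7% in tph-1. Under that rescaling fer-1 and spe-9 were called higher in tph-1 too.

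**Figure D1:**
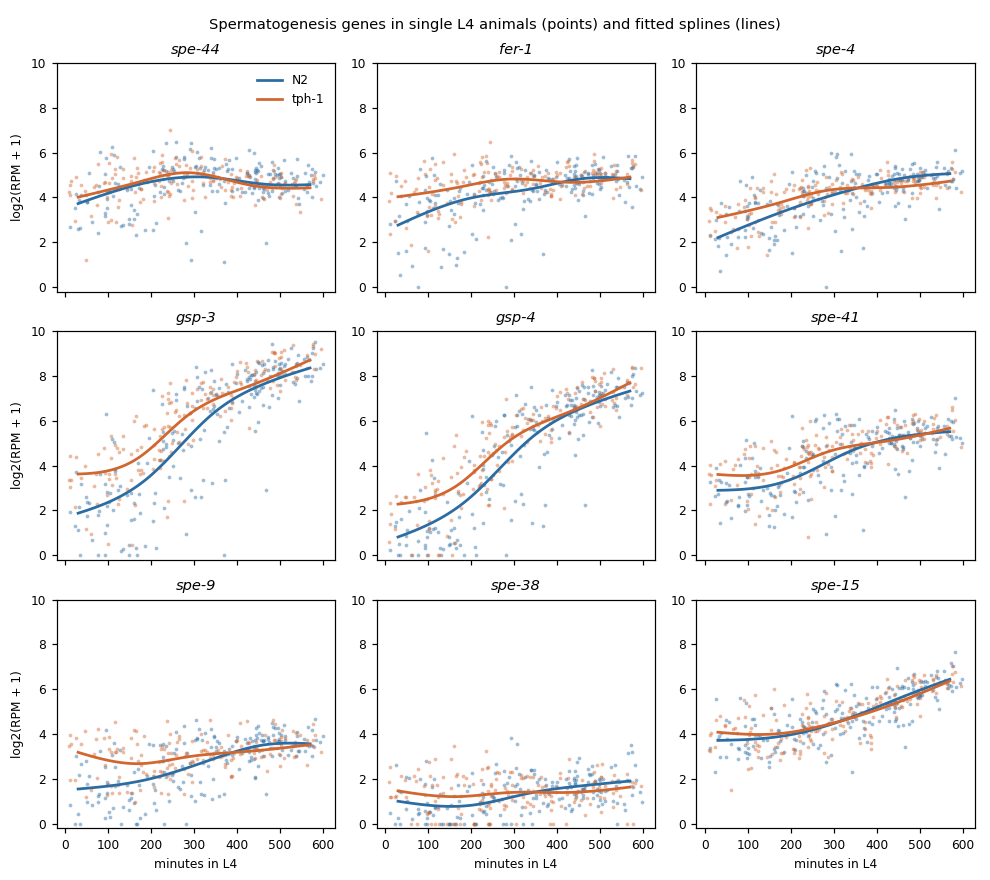
Each point is 1 animal, with minutes in L4 on the horizontal axis and log2(RPM + 1) on the vertical axis, and lines are natural splines (4 df) with set centred, for N2 (blue) and tph-1 (orange). gsp-3 and gsp-4 climb over the whole stage, spe-44 has a hump with its fitted peak at 305 min in N2 and 285 min in tph-1, and spe-38 stays near the detection limit.

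The transcription factor of the group had its highest median in the middle window. spe-44 (WBGene00007732; chromosome IV, 12452063 to 12454215, minus strand in the Ensembl 115 annotation of WBcel235) encodes a SAND-domain protein that switches on many sperm genes. Its level in early N2 animals ran from 4.03 to 74.8 RPM with a median of 16.1, in middle animals from 1.18 to 88.9 RPM with a median of 35.4, and in late animals from 2.94 to 69 RPM with a median of 27. In tph-1 animals the 3 windows held 1.28 to 61 RPM (median 22.6), 7.4 to 126.2 RPM (median 29.2) and 9.24 to 43.3 RPM (median 24). This held in both strains, and the windows overlapped widely. The middle minus early change was 0.73 ± 0.22 (SE) in N2 and 0.51 ± 0.15 in tph-1, with limma adjusted p of 0.00414 and 0.00164, below the minimum change for a call. From middle to late it changed by -0.23 ± 0.20 in N2 (adjusted p 0.367) and by -0.47 ± 0.14 in tph-1 (adjusted p 0.00199). spe-44 was thus the 1 tested gene of the 8 without a late-against-early call in N2, at 0.50 ± 0.28 (adjusted p 0.118), and in tph-1 its change was 0.04 ± 0.17 (adjusted p 0.836). After TMM rescaling these changes were 0.74 ± 0.26 in N2 (adjusted p 0.0133) and 0.64 ± 0.15 in tph-1 (adjusted p 0.000182), still below the minimum change.

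2 genes act while spermatids are assembled. spe-4 (WBGene00004958; chromosome I, 7454660 to 7456953, plus strand) encodes a presenilin-family protein of the membranous organelles. Its N2 levels were 0.65 to 28.9 RPM (median 7.28) early, 0 to 62.2 RPM (median 18.4) in the middle window and 7.34 to 68.3 RPM (median 26.8) late. In tph-1 they were 1.68 to 32.4 RPM (median 9.24), 5.18 to 38.9 RPM (median 18.8) and 14.6 to 46.5 RPM (median 25.6). Medians rose from window to window in both strains, with overlap between neighbouring windows. The late minus early change was 1.76 ± 0.27 in N2 (limma adjusted p 6.25e-09) and 1.06 ± 0.15 in tph-1 (8.09e-11). The tph-1 call was just past the minimum change and was lost without set 3 (0.95), without set 4 (0.98) or with a pseudocount of 5 (0.81).

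spe-15 (WBGene00004969; chromosome I, 1446497 to 1465358, plus strand), also known as hum-3, encodes a myosin VI motor that helps to sort cell components at spermatid budding. In N2 it ran from 3.88 to 47.2 RPM (median 12.1) early, 3.94 to 75.2 RPM (median 22.1) in the middle window and 9.54 to 199.7 RPM (median 56.5) late. The tph-1 windows held 1.8 to 63.3 RPM (median 14.5), 6.57 to 56 RPM (median 19.7) and 26.3 to 130.5 RPM (median 65.7). The larger step came between the middle and late windows in both strains. The middle minus early change was 0.50 ± 0.19 in N2 and 0.36 ± 0.16 in tph-1, while the late minus middle change was 1.18 ± 0.16 (limma adjusted p 2.4e-10) and 1.39 ± 0.15 (7.16e-16). The annotated spe-15 locus overlaps gst-25 and 2 non-coding genes with no shared exonic base.

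The phosphatases had the largest changes of the 8 tested genes. gsp-3 (WBGene00021113; chromosome I, 4709259 to 4710712, minus strand) and gsp-4 (WBGene00020187; chromosome I, 3838237 to 3839673, minus strand) encode near-identical sperm-specific PP1 catalytic subunits needed for meiotic chromosome segregation and for sperm motility. Reads could be split between such copies by the counting, so each is uncertain as a single gene. gsp-3 in N2 ran from 0 to 79.2 RPM (median 3.55) early, 0 to 371.8 RPM (median 47.7) in the middle window and 6.6 to 732.8 RPM (median 267.7) late. In tph-1 it ran from 0.38 to 72.5 RPM (median 11.5), 2.28 to 300.9 RPM (median 92) and 50.7 to 691.4 RPM (median 318.4). Early and late groups overlapped in both strains through a few animals. Of 49 early N2 animals 4 had at least 30 RPM of gsp-3, and of 77 late ones 1 had less than that. In tph-1, 6 of 47 early animals reached 30 RPM and 0 of 47 late animals were below it.

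The late minus early change of gsp-3 was 4.44 ± 0.47 in N2 (limma adjusted p 4.51e-16) and 3.87 ± 0.29 in tph-1 (8.14e-26). For gsp-4 it was 4.32 ± 0.42 (4.62e-18) and 4.02 ± 0.28 (3.26e-29). gsp-4 went from an early median of 1.03 RPM to a late one of 124.1 RPM in N2, with ranges of 0 to 43.2 and 3.67 to 323.5 RPM, and from 5.09 to 151.1 RPM in tph-1, with ranges of 0 to 40.2 and 44.4 to 342.2 RPM. Both phosphatases were called at each of the middle-minus-early and late-minus-middle steps in both strains. In late animals with at least 20 reads of the pair, gsp-3 took a median of 68.6% of those reads in N2 (61.9% to 72.2%, 76 animals) and 69% in tph-1 (53.3% to 75.3%, 47 animals). The widely expressed PP1 genes gsp-1 and gsp-2 were not called: gsp-1 changed by -0.31 ± 0.10 in N2 and -0.04 ± 0.09 in tph-1, and gsp-2 by -0.53 ± 0.10 and -0.73 ± 0.09, none of them past the minimum change.

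fer-1 (WBGene00001414; chromosome I, 8623012 to 8631202, minus strand) encodes the founding ferlin, a membrane protein needed for membranous organelles to fuse with the plasma membrane at sperm activation. Its N2 levels were 0 to 53.1 RPM (median 11.9) early, 0 to 56 RPM (median 21.8) in the middle window and 8.07 to 57.2 RPM (median 28.6) late. In tph-1 they were 2.03 to 60.5 RPM (median 17.8), 3.7 to 87.3 RPM (median 24.7) and 14.4 to 60.2 RPM (median 31.9). Early animals already held much of the late level, and more so in tph-1. The late minus early change was 1.37 ± 0.30 in N2 (limma adjusted p 4.05e-05) and 0.52 ± 0.18 in tph-1 (0.0058), the latter below the minimum change. The N2 call was lost without N2 set 5 (0.99) and, just under the minimum change, with windows at 150 and 450 min (0.998). 2 non-coding genes on the opposite strand share 150 and 102 exonic bases with fer-1, and the use of strand in counting is not given in the sources used here.

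3 genes act at fertilization. spe-9 (WBGene00004963; chromosome I, 11582743 to 11586069, minus strand) encodes a transmembrane protein with EGF repeats on the sperm surface. In N2 it ran from 0 to 17.2 RPM (median 1.53) early, 0 to 23.3 RPM (median 6.77) in the middle window and 1.47 to 24.5 RPM (median 11.5) late. In tph-1 it ran from 0.92 to 21.9 RPM (median 7.61), 1.48 to 23.6 RPM (median 6.51) and 4.1 to 23.6 RPM (median 9.94). Early tph-1 animals thus had a higher median than middle ones, whereas N2 rose throughout. The late minus early change was 1.41 ± 0.27 in N2 (limma adjusted p 2.72e-06) and 0.52 ± 0.20 in tph-1 (0.0128), the latter not called. The N2 call was lost with a pseudocount of 5, where the change was 0.82. An exon of C17D12.5 on the opposite strand shares 8 bases with spe-9; the early median of C17D12.5 was 0.485 RPM in N2, against 1.23 in tph-1.

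spe-41 (WBGene00004976; chromosome III, 3439011 to 3444210, minus strand), also known as trp-3, encodes a TRPC-family calcium channel that moves to the sperm surface at activation. Its N2 levels were 1.37 to 34.4 RPM (median 6.6), 0.96 to 77.9 RPM (median 22.3) and 5.14 to 128.6 RPM (median 39.2) in the successive windows, and its tph-1 levels were 1.63 to 33.6 RPM (median 11.4), 0.74 to 63.4 RPM (median 23) and 15.9 to 96.1 RPM (median 46.7). The rise was spread over both steps. The late minus early change was 1.96 ± 0.30 in N2 (limma adjusted p 6.28e-09) and 1.67 ± 0.20 in tph-1 (1.89e-13). The related channel genes trp-1 and trp-2 changed by -0.35 ± 0.26 and -0.68 ± 0.27 in N2, neither called.

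spe-38 (WBGene00013121; chromosome I, 10964472 to 10966382, minus strand) encodes a multi-pass membrane protein of sperm required for fertilization, and was the lowest of the 9. Its N2 medians were 0.55, 1.40 and 2.07 RPM in the early, middle and late windows, with 12 of 49, 9 of 67 and 1 of 77 animals at 0 and a highest value of 13.1 RPM. The tph-1 medians were 1.45, 1.40 and 2.1 RPM, with 9 of 47, 9 of 70 and 3 of 47 animals at 0. With no filter on low values, its late minus early change was 0.62 ± 0.23 in N2 (limma adjusted p 0.0181 over 19364 genes) and 0.21 ± 0.21 in tph-1 (0.332), neither past the minimum change. An exon of impt-1 on the same strand shares 58 bases with spe-38, and impt-1 had medians of 3.97 RPM early and 2.17 RPM late in N2.

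Step by step, 4 of the 8 tested genes rose between the early and middle windows in N2 (spe-4, spe-41, gsp-3 and gsp-4; 7.89% of all tested genes rose and 4.76% fell) and 2 in tph-1 (gsp-3 and gsp-4; 5.7% rose and 4.76% fell). Between the middle and late windows 3 rose in N2 (8.4% rose and 4.23% fell over all genes) and 3 in tph-1 (7.93% rose and 6.23% fell), and spe-15, gsp-3 and gsp-4 were the 3 in each strain. 0 of the 8 fell at either step. The split of all calls at the first step moved with TMM rescaling, from 62.4% higher to 75.8% in N2 and from 54.5% to 79.1% in tph-1.

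Levels can be set side by side only per exon length. Between 500 and 600 min in N2, the median level per kilobase of exon was 322.8 RPM for gsp-3, 134.4 for gsp-4, 19.8 for spe-15, 19.3 for spe-4, 15.4 for spe-44, 14.8 for spe-41, 5.14 for spe-9, 4.64 for fer-1 and 2.98 for spe-38. In tph-1 the same 100 min held 315.8, 155.7, 19.1, 15.3, 14.5, 16.7, 5.87, 5.06 and 3.34 RPM per kilobase, in that gene order. The phosphatases stood above the other 7 genes in both strains. The ranges over animals of spe-15, spe-4, spe-44 and spe-41 overlapped, as did those of spe-9 and fer-1. In the first 100 min spe-44 led instead, at 8.32 RPM per kilobase in N2 and 12.2 in tph-1, with gsp-3 at 2.66 and 8.4.

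**Figure D2:**
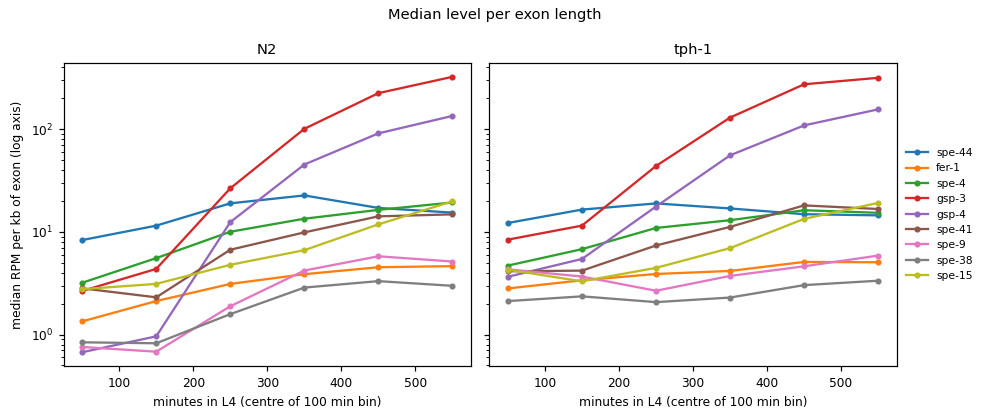
Median RPM per kilobase of annotated exon (vertical log axis) of each gene in 100 min bins of L4 (horizontal axis, bin centres), N2 on the left and tph-1 on the right. gsp-3 passes spe-44 between 200 and 300 min and gsp-4 does so in the next bin, and both end far above the other 7 genes, and spe-9 dips in tph-1 before it rises.

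The order in which the genes came up was read from the fitted curves, as the first minute at which the spline passed the midpoint between its lowest value before the peak and its peak. In N2 this minute was 125 for spe-44, 170 for fer-1, 225 for spe-4, 280 for gsp-3 and for gsp-4, 295 for spe-41, 300 for spe-9, 330 for spe-38 and 390 for spe-15. In tph-1 it was 150 for spe-44, 180 for fer-1, 200 for spe-4, 285 for gsp-3 and for gsp-4, 290 for spe-41, 340 for spe-9 and 415 for spe-15. Among these 8 genes the regulator came first and the budding myosin last in both strains. This order describes the curves, with no test.

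The range of each minute with each set left out is a narrow measure of its error. In N2 it was 115 to 160 min for spe-44, 165 to 215 for fer-1, 200 to 255 for spe-4, 270 to 305 for gsp-3, 270 to 290 for gsp-4, 270 to 315 for spe-41, 285 to 325 for spe-9 and 355 to 405 for spe-15. The jackknife SE over the same sets was wider. In N2 it was 37.3 min for spe-44, 44.1 for fer-1, 44.7 for spe-4 and 25.6 for gsp-3. For gsp-4 it was 14.4, for spe-41 32.2, for spe-9 34.8 and for spe-15 38.4. In tph-1 it ran from 12.8 (spe-15) to 71.8 min (spe-9), with 34.9 for spe-4 and 50.3 for gsp-3. By these SEs the steps from spe-44 to fer-1, fer-1 to spe-4 and spe-4 to gsp-3 were not resolved in either strain. The step from spe-9 to spe-15 was not resolved in tph-1. Among the 8 genes other than spe-38 there are 28 pairs, of which 27 had the same order in both strains, and the 1 remaining pair, gsp-3 with gsp-4, was tied. Of the 27 untied pairs 24 kept their order with every N2 set left out and 23 with every tph-1 set left out. gsp-3, gsp-4, spe-41 and spe-9 were not separated from their neighbours by these ranges, and neither were fer-1 and spe-4 in N2 or in tph-1 (115 to 200 and 160 to 215 min there), nor spe-44 (120 to 160 min) and fer-1 in tph-1. The tph-1 curve of spe-38 was nearly flat, at 1.2 to 1.63 in log2(RPM + 1), and its minute moved from 460 to between 145 and 265, with none found without tph-1 set 1, so no onset is given for it there.

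**Figure D3:**
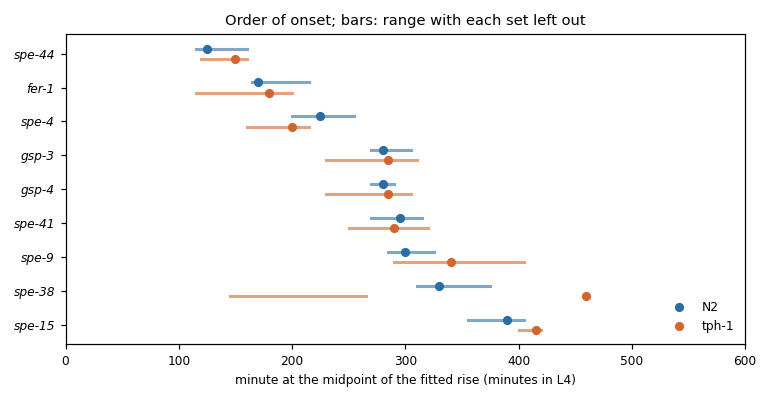
Minute in L4 at the midpoint of the fitted rise (points) for each gene in N2 (blue) and tph-1 (orange), and the range of that minute with each set left out (bars). Leaving spe-38 aside, spe-44 is first at 125 and 150 min and spe-15 last at 390 and 415 min; the spe-38 point in tph-1, at 460 min, lies outside its own bar.

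Onset minutes lay close in both strains, but each is relative to the low and the peak of its own curve. The low of the gsp-3 curve was 2.68 RPM in N2 and 11.4 RPM in tph-1. Set levels of gsp-3 and gsp-4 had higher medians in tph-1, a difference that was not called. Strains were compared over the 12 sets, each set giving 1 level per gene at a shared spline of minutes. gsp-3 set levels, in log2(RPM + 1), were 4.13 to 6.08 in N2 (median 5.59) and 6.2, 6.76, 6.12 and 6.01 in tph-1 sets 1 to 4. The tph-1 minus N2 difference was 0.83 ± 0.27 (limma adjusted p 0.1). For gsp-4 the sets ran from 3.29 to 5.06 (median 4.5) in N2 and stood at 5.12, 5.55, 4.85 and 4.81 in tph-1, a difference of 0.65 ± 0.24 (adjusted p 0.118). fer-1 sets ran from 3.48 to 4.66 in N2 and from 4.46 to 4.81 in tph-1 (0.41 ± 0.18, adjusted p 0.159). spe-9 sets ran from 1.64 to 3.31 in N2 and from 2.91 to 3.25 in tph-1 (0.44 ± 0.25, adjusted p 0.243). The sets of the strains overlapped for each of these genes. The differences of spe-41, spe-44, spe-4 and spe-15 were 0.32 ± 0.17, 0.09 ± 0.17, 0.09 ± 0.14 and 0.00 ± 0.15.

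0 of the 8 genes were called between strains in limma, 3 had an unadjusted p under 0.05 (gsp-3, gsp-4 and fer-1), and 0.434% of all tested genes were called. edgeR's quasi-likelihood test on recovered reads, in which animals and not sets were the units, called 6, where 59% of all tested genes were called and 33.9% were higher in tph-1. Limma over animals called 5, where 63.7% were called and 20.1% were higher. The called genes of the 8 were all higher in tph-1 under both, where the shares in that direction were 33.9% and 20.1%. Each set holds 1 strain, so animals are not independent units here, and these counts say little about the 8. The split of calls over all genes moved from 66.1% higher to 78.9% under TMM rescaling. Against N2 sets 1 to 5, which hold the early animals, the differences were 1.09 ± 0.29 for gsp-3, 0.83 ± 0.27 for gsp-4 and 0.62 ± 0.18 for fer-1, and these 3 were called (adjusted p 0.0152, 0.0355 and 0.024). Over all tested genes 28.7% were called in that comparison and 6.9% were called higher in tph-1. The 3 genes were all higher in tph-1, so 6.9% is the share in their direction. The count of 3 of 8 was not tested against either share. Against N2 sets 6 to 8, which hold no animal under 200 min, they were 0.25 ± 0.20, 0.21 ± 0.19 and 0.02 ± 0.16, and 0 of the 8 were called, beside 0.42% of all tested genes. Sets differ in both the minutes they cover and in whatever else a set number stands for, which the labels do not say, so these cannot be told apart.

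**Figure D4:**
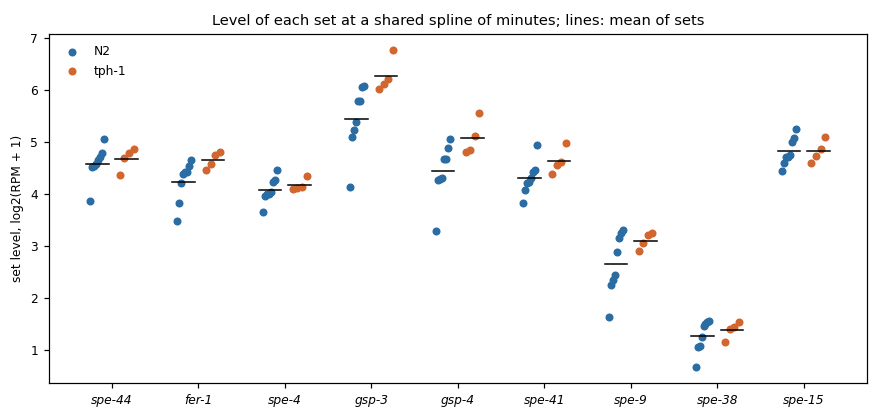
Level of each set at a shared spline of minutes, in log2(RPM + 1), for the 8 N2 sets (blue) and the 4 tph-1 sets (orange) of each gene, with a line at the mean of the sets. N2 sets spread more widely than tph-1 sets for gsp-3 (4.13 to 6.08 against 6.01 to 6.76), and the spe-15 means coincide.

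Window by window, the early difference was 1.08 ± 0.45 for gsp-3 and 0.98 ± 0.41 for spe-9, over 5 N2 and 3 tph-1 sets with at least 3 animals (limma adjusted p 0.189 and 0.192). Early set medians of spe-9 were 0.76, 1.57, 1.86, 2.25 and 7.54 RPM for N2, beside 4.53, 7.61 and 12 RPM for the mutant, so 1 N2 set lay among the tph-1 sets. Early set medians of gsp-3 were 1.19, 2.65, 4.28, 5.06 and 18 RPM for N2, beside 10, 11.8 and 25.7 RPM for the mutant. In the middle window the differences were 0.70 ± 0.29 for gsp-3 and 0.37 ± 0.15 for fer-1 (adjusted p 0.163 and 0.153), and late they were 0.22 ± 0.24 and -0.15 ± 0.23 (adjusted p 0.886 and 0.893). 0 of the 8 genes were called in any window, where 0.294%, 0.259% and 0.238% of all tested genes were called early, middle and late. Unadjusted p was under 0.05 for 2 genes early (gsp-3 and spe-9), 2 in the middle window (gsp-3 and fer-1) and 0 late. For the early window the split of all calls went from 69% higher to 37.3% under TMM rescaling. The fitted gsp-3 curve reached 10 RPM at 195 min in N2, and in tph-1 by 30 min, where the curves start. It reached 30 RPM at 275 min in N2 and 210 min in tph-1, and 100 RPM at 370 and 320 min. The gsp-4 curve reached 10 RPM at 250 and 195 min, 30 RPM at 325 and 280 min, and 100 RPM at 470 and 460 min. For both genes the strains were furthest apart at 10 RPM and closest at 100 RPM. These minutes carry no test.

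An F test of strain by spline, with set as a covariate, asked whether the time courses differed in shape. Animals and not sets were its units, so its p values and the SEs below do not measure how time courses differ between sets. 0 of the 8 genes passed limma's adjusted threshold, against 2.17% of all tested genes, and 2 had an unadjusted p under 0.05: spe-9 (adjusted p 0.118) and spe-4 (adjusted p 0.292). The difference between the strains' late minus early changes was -0.89 ± 0.33 for spe-9, -0.85 ± 0.35 for fer-1 and -0.70 ± 0.30 for spe-4, so the fits for these 3 were shallower in tph-1, with no adjusted p under 0.05 (0.161, 0.204 and 0.231). Over all genes, 26.8% of those called had a larger late minus early change in tph-1, and 59.4% under TMM rescaling. The median of this difference over all tested genes was -0.27, and 0.06 after TMM rescaling, under which the 3 differences shrank to -0.50 ± 0.30, -0.47 ± 0.30 and -0.34 ± 0.28 for spe-9, fer-1 and spe-4.

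A transcriptional age was read from 14220 of the 14293 tested genes by partial least squares trained on N2. Only the genes followed here and those of the sperm lists used below were left out. Unlisted genes that follow them closely stayed in, such as ZK945.7, C39H7.1 and R10E9.2. Their rho with gsp-3 over N2 animals was 0.985, 0.984 and 0.983. The age lay on average 51.1 min above the labelled minutes in tph-1 and 6.3 min below them in N2. With this age in place of minutes the strain difference was -0.03 ± 0.24 for gsp-3, -0.17 ± 0.25 for gsp-4, 0.11 ± 0.18 for fer-1 and 0.19 ± 0.21 for spe-9, and 0 genes were called. Because such followers helped to set the age, this replacement cannot tell an age offset from a strain difference shared with them. How far the age offset enters the strain differences was not tested further.

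Animals of the same minute differed from each other, and the 9 genes moved together. After removal of minutes and set, the SD between animals of gsp-3 was 1.45 in log2(RPM + 1) in N2 and 1.01 in tph-1, and those of spe-15 were 0.71 and 0.70. The residual SD was lower in tph-1 for each of the 8 tested genes, and higher there for spe-38 (0.79 against 0.72). Compared over sets with limma in a test added after the data were seen, 0 of the 8 differed in spread (0 with an unadjusted p under 0.05; 0.021% of all tested genes were called), with gsp-3 at -0.46 ± 0.29 in log2 of the SD. Residuals of the 36 gene pairs were positively correlated in all 36 pairs in both strains. Spearman rho ran from 0.41 to 0.91 (median 0.68) in N2 and from 0.22 to 0.86 (median 0.54) in tph-1. These values share library and depth and are a description. gsp-3 with gsp-4 was highest in each strain, 0.91 and 0.86.

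Residuals also followed those of marker lists, germline and, in tph-1, somatic ones. Against the mean log2 level of 8 germline markers, rho of the 9 genes ran from 0.30 to 0.63 in N2 and from 0.21 to 0.49 in tph-1, with spe-44 at 0.63 and 0.49. Against 10 oocyte markers the ranges were 0.37 to 0.60 and 0.31 to 0.58, and against 6 spermatheca and sheath markers they were 0.04 to 0.26 and -0.01 to 0.52. The median rho in N2 was 0.486 with the germline markers and 0.198 with the spermatheca and sheath markers. In tph-1 these medians were 0.33 and 0.374, so the somatic list was not lower there. Against the major sperm protein genes, rho was 0.749 and 0.695 for gsp-3 in the respective strains but 0.267 and 0.115 for spe-44. The part of germline size in these correlations was not tested.

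Single animals stood far from the rest of their window. The late N2 animal of set 8 at 466.5 min was the lowest of its window in 8 of the 9 genes, with 6.6 RPM of gsp-3, 3.67 RPM of gsp-4 and 9.54 RPM of spe-15, and a transcriptional age of 474.2 min. Its 31 major sperm protein genes summed to 63.8 RPM beside a late N2 median of 15677 RPM, while its 10 oocyte markers summed to 1716 RPM beside a median of 1066, and its 8 germline markers to 488.7 beside 871.9. At the other end, an early N2 animal of set 3 at 95.7 min was the highest of its window in 5 of the 9 genes, with 79.2 RPM of gsp-3, 34.4 RPM of spe-41 and 17.2 RPM of spe-9, and a transcriptional age of 209.2 min.

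Each gene was also set beside the genes whose levels followed it most closely over N2 animals, by Spearman rho on log2(RPM + 1) among tested genes outside the 9. For gsp-3 these were ZK945.7 (rho 0.985 in N2 and 0.965 in tph-1), C39H7.1 (0.984 and 0.977) and R10E9.2 (0.983 and 0.985). spe-15 was followed most closely by R148.7 (0.955 and 0.883), spe-41 by T05A7.6 (0.942 and 0.933), spe-4 by F40G12.10 (0.922 and 0.8), spe-9 by C33C12.7 (0.914 and 0.586), fer-1 by Y24D9B.1 (0.887 and 0.734) and spe-44 by W03A5.1 (0.819 and 0.719). spe-38 had its highest rho with ZK973.8 (0.761 and 0.557). The highest rho was lower for spe-44 and spe-38 than for the other 7 genes in N2, and among these closest followers it differed most between the strains for spe-9. The points share library and depth, and no p is given.

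Other genes of sperm formation were counted from lists. Of 8 regulators of sperm fate 0 rose and 2 fell late against early in each strain, fog-3 with changes of -1.34 ± 0.23 in N2 and -1.85 ± 0.22 in tph-1 and fog-1 with -1.24 ± 0.23 and -1.46 ± 0.20; both commit germ cells to the sperm fate. Among spermatid assembly genes, spe-6, which encodes a casein kinase, rose by 1.88 ± 0.27 in N2 and 1.47 ± 0.20 in tph-1. Of 9 tested activation genes 5 rose in N2 and 6 in tph-1, where 1 fell, with spe-8, a tyrosine kinase of the activation pathway, at 2.85 ± 0.34 and spe-46 at 2.45 ± 0.33 in N2. Of 4 tested fertilization genes 3 rose in N2 and 1 in tph-1, with spe-11, a sperm-supplied egg activation factor, at 3.03 ± 0.38 and spe-49 at 1.34 ± 0.26 in N2.

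Genes of sperm chromatin and of the major sperm proteins had larger median changes than the 8 tested genes. All 7 sperm chromatin and small sperm protein genes rose in both strains, with spch-1 at 6.33 ± 0.59 and spch-3 at 6.30 ± 0.57 in N2, and all 30 tested major sperm protein genes rose in both, with medians of 6.31 in N2 and 6.75 in tph-1, msp-31 and msp-3 both at 7.1 in N2. The msp genes are near-identical copies and uncertain as single genes. gsp-3 and gsp-4, at 4.44 and 4.32 in N2, lay below the medians of both lists (5.11 for the sperm chromatin list), although single genes of each, such as htas-1 (3.64) and msp-63 (3.30), lay lower. 0 of the 9 widely expressed relatives rose in either strain. sel-12, a presenilin like spe-4, fell in tph-1 (-1.23 ± 0.18), where 23.6% of all tested genes fell. hop-1, hum-1, hum-2 and hum-8 were not called.

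Markers of other cells moved with the stage as well. Late against early in N2, 8 of 10 oocyte markers rose (7 in tph-1), perm-2 by 5.37 ± 0.38 and perm-4 by 5.11 ± 0.42 in N2, and 2 of 8 germline markers rose (1 in tph-1), mex-5 by 1.28 ± 0.30 and gld-1 by 1.24 ± 0.27 in N2. 0 of 6 spermatheca and sheath markers rose in either strain, and 1 of them, spv-1, fell in tph-1 (-1.02 ± 0.16). 0 of 5 male neuron markers rose, while 2 of these 5 fell in tph-1. Over all tested genes 23.6% fell in tph-1, and the list counts were not tested against that share. The number of falling genes there went from 3377 to 823 with TMM rescaling. Male neuron markers summed to 0.48 to 201.2 RPM per animal, with 0 of the 5 at 0 in all animals of a window, and their early medians were 22.6 RPM in N2 and 52.8 RPM in tph-1. Oocyte markers summed to a median of 227.2 RPM early and 1066 late in N2; the tph-1 medians were 183.8 and 904.4. Germline markers summed to medians of 648.1 and 871.9 RPM in N2 and 530.8 and 826.7 in the mutant. Their part in the changes of the 9 genes was not tested.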

How the data were processed

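Per the labels, single animals were lysed and libraries made with Nextera after the SMART-seq2 method named in the study's design; the aligner, per the submitters' processing notes, was STAR 2.7.9a, and no source used here names the build, annotation or counting tool. The authors deposited RPM values for each strain in a table of its own, with minutes in L4 in the first line. All values (100%, tolerance 0.1) were whole multiples of 1 read. Exon lengths and positions came from Ensembl 115 (18734 symbols matched).

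Values were analysed as log2(RPM + 1) with limma 3.58.1 in R 4.3.3. The window changes and the shape test were fitted over animals with the set as covariate. Strain differences in level were fitted on set levels at a shared natural spline (4 df) of minutes. edgeR 4.0.16 on the recovered reads was an alternative, with 2194 genes higher and 624 lower late against early in N2. Transcriptional age used scikit-learn 1.9.0. The limma fits of windows and of strain and the reading of onset were tested on simulated data. The genes, lists and tests were chosen with earlier results of these data known. Genes named were the 9, their widely expressed relatives, the 2 called genes of each list with the largest N2 late-minus-early change, and for each gene its closest followers in N2. 2 animals named singly, and the genes that share exons, were chosen after their values were seen. The count over spermatid assembly genes is not reported here.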

Additional observations from a re-analysis of the deposited data

Results flagged for a closer look

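N2 set 5 stood apart from the other 7 N2 sets for gsp-4, at a set level of 3.29 in log2(RPM + 1) beside 4.28 to 5.06, and for spe-44, at 3.87 beside 4.52 to 5.05. In each the gap to the next set was a larger share of the whole range (0.556 and 0.551) than Dixon's 95% critical value for 8 sets. 18 groups of sets were looked at, and chance alone marks about 1 in 20. Set 5 was also the lowest N2 set for every other gene followed here. Examples are gsp-3 (4.13, next set 5.1), spe-9 (1.64, next 2.25) and fer-1 (3.48, next 3.82). The marks are therefore not independent of each other, and set 5 lowers the N2 mean in each strain difference. Set 5 held 25 animals, 17 of them under 200 min. The cause was not tested. Without set 5 the strain difference of spe-44 was -0.02.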

How the results depend on the processing

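For late minus early changes and strain differences of single genes, 392 alternative values kept direction and side of the threshold, 24 passed it, 6 no longer did and 23 changed sign. The number of the 8 genes that rose from early to middle was 7 with edgeR on recovered reads, 2 with a pseudocount of 5 and 2 with windows at 150 and 450 min in N2, and 4 with edgeR and 4 with TMM rescaling in tph-1. With each set left out it ran from 2 to 5 in N2 and stayed at 2 in tph-1. The number that rose from middle to late in N2 ran from 3 to 5 (5 without set 8). The number called between strains was 0 with each set left out, 3 with N2 sets 1 to 5 alone, 5 with animals as units and 6 with edgeR, at an adjusted p under 0.05 with no minimum change; 28.7%, 63.7% and 59% of all tested genes were called there. It was 1 at most for the shape test (0 to 1, without N2 set 3 or 8) and 0 to 3 for the early window (3 without N2 set 3). Calls over all tested genes moved with the setting too. From early to middle in tph-1, 815 genes rose as reported above and 1256 with TMM rescaling. Between strains in the early window 29 were higher and 13 lower as reported above, and 149 and 250 with TMM rescaling. Where no share of all tested genes is given, the counts here show nothing particular to the 8.

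Sets 1 to 4 share numbers between the strains, but same-numbered sets deviated together only weakly (r of 0.218, -0.095, 0.098 and -0.019). The labels do not say what the number stands for, and these values cannot show whether such sets share more than it. With the set number as a replicate block 3 genes were called (gsp-3, gsp-4 and fer-1; 35% of all tested genes were called and 9.31% were higher in tph-1), and with those sets and no replicate block 3 (again these; 26.5% and 6.25%).

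Some strain differences turned below 0. With transcriptional age these were gsp-3 (-0.0295), gsp-4 (-0.172), spe-15 (-0.279), spe-4 (-0.253), spe-41 (-0.0633) and spe-44 (-0.0925). Against N2 sets 6 to 8 they were spe-15 (-0.0384), spe-4 (-0.0915), spe-44 (-0.184) and spe-9 (-0.141). For spe-15, whose reported difference was 0.00, they were also -0.00185 with a pseudocount of 5, -0.0802 for sets 1 to 4 with or without the replicate block, -0.103 without the libraries of lowest depth, and -0.0829 to 0.0683 with each set left out. For spe-44 the latter range was -0.0163 to 0.189, and its late minus early change in tph-1 ran from -0.115 to 0.126. The median onset was 30 min in both strains when taken as 10% of the peak of a running median, a level most genes already had at the start; with each set left out it ran from 230 to 307.5 min in tph-1. The cause was not tested for any of these. Depth limits spe-38, which had no read in 12 of 49 early N2 animals.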
